A study of Homo sapiens with 6 samples.

Results

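The 10 genes described here encode proteins that bind and organise the microtubules of the mitotic spindle: DLGAP5, HMMR, NUSAP1, PRC1, TACC3, ASPM, CKAP5, CKAP2, SPAG5 and NUMA1. They are a list of gene names, drawn up with earlier results of these data known, so their counts are a description and not free of selection. Every probe set that the platform annotation assigns to 1 of these symbols alone was taken. That gave 32 of 44988 single-symbol probe sets, for 10 of the 18132 genes measured. Affymetrix arrays had been hybridised with total RNA from cells labelled HCT-116, an established human colorectal carcinoma line, grown in RPMI 1640 with serum. There were 6 arrays: 3 of cells that received only the solvent DMSO, and 3 of cells that received a compound coded AAPK, which the series title describes as a dual inhibitor of the kinases Aurora A and PLK-1. The treatment note is the same for all 6 samples and gives 10 µM for 48 h, read here as the dose of AAPK. All 6 samples, controls included, are described as high in Aurora-A and PLK-1, with no statement of how that state arose. Since no label states that the 3 samples of a group were grown separately, each p-value reflects the scatter among these samples and that scatter may be technical.

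The arrays were alike in overall signal, with medians of 6.46 to 6.50 on the log2 scale and correlations over all probe sets of 0.998 for arrays of 1 group and 0.994 to 0.995 for arrays of different groups. The line was checked against 10 colorectal epithelial markers. KRT8 and KRT18, the keratins of simple epithelia, were bright, at 10.38 to 12.57 over all their probe sets and arrays. In 5 of the 10 genes, however, every probe set had a mean signal under the 25th percentile of all single-symbol probe sets (5.15). They were EPCAM, an epithelial adhesion molecule, with 3 probe sets at 3.20 to 3.52, CDH1, which encodes E-cadherin, with 2 at 3.96 to 5.15, KRT19 at 4.94 to 5.07, KRT20 and VIL1. The arrays thus lacked clear signal for several defining markers of the labelled cell type, in controls and treated cells alike, and whether the cells were the labelled line was not tested. In the epithelial list 1 gene rose, KRT8, by 0.17 (limma adjusted p = 0.0402), a call lost without any 1 of DMSO replicates 1, 2 and 3 and AAPK replicates 1 and 2; the summed linear signal of the list was 9732 to 10040 in DMSO and 10336 to 10968 in AAPK. KRT8 and KRT18 made up most of that sum. Of 9 measured markers of blood, endothelial and fibroblast cells, 0 passed the test (1 was lower at an unadjusted p under 0.05), beside 8.11% of all genes higher and 7.26% lower. Their summed linear signal was 1020 to 1082 in DMSO and 990 to 1046 in AAPK. On the brightest probe set, 6 of these 9 lay above the 25th percentile of all genes, against only 3 of the 10 epithelial markers. By these counts the epithelial list was thus not set apart from the markers of other cells. KRT8 and KRT18 alone were well above all 9 of those, whose highest value on any array was 8.14 (CD68).

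As background, the spindle is built from dynamic microtubules that motors and microtubule-associated proteins nucleate, crosslink, stabilise and focus at the poles. Many of these proteins are needed only in mitosis, and their genes are transcribed mostly in G2 and M phase under the control of B-MYB, FOXM1 and the DREAM complex. Aurora A acts on several of them: TPX2 activates the kinase on microtubules, and Aurora A phosphorylates TACC3 and the DLGAP5 product. PLK1 acts at kinetochores, poles and the midzone, where it binds the PRC1 protein. RNA from a mixed culture cannot tell more cells in mitosis from more RNA per cell.

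Most of the spindle genes were higher in cells given AAPK. On the brightest probe set of each gene, 7 of the 10 rose and 0 fell (also 0 lower at an unadjusted p under 0.05), against 8.11% of all 18132 genes higher and 7.26% lower, or 15.4% in either direction (limma, Benjamini-Hochberg adjusted p under 0.05). The median log2 change was 0.35 for the 10 genes and -0.02 for all genes. Changes of 0.5 or more on the log2 scale were seen in 4 of the 10, DLGAP5, HMMR, ASPM and SPAG5, and in 0.491% of all genes. The AAPK and DMSO arrays did not overlap for 9 of the 10 genes, against 31.9% of all genes. CKAP5, NUMA1 and CKAP2 did not pass the test.

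**Figure D1:**
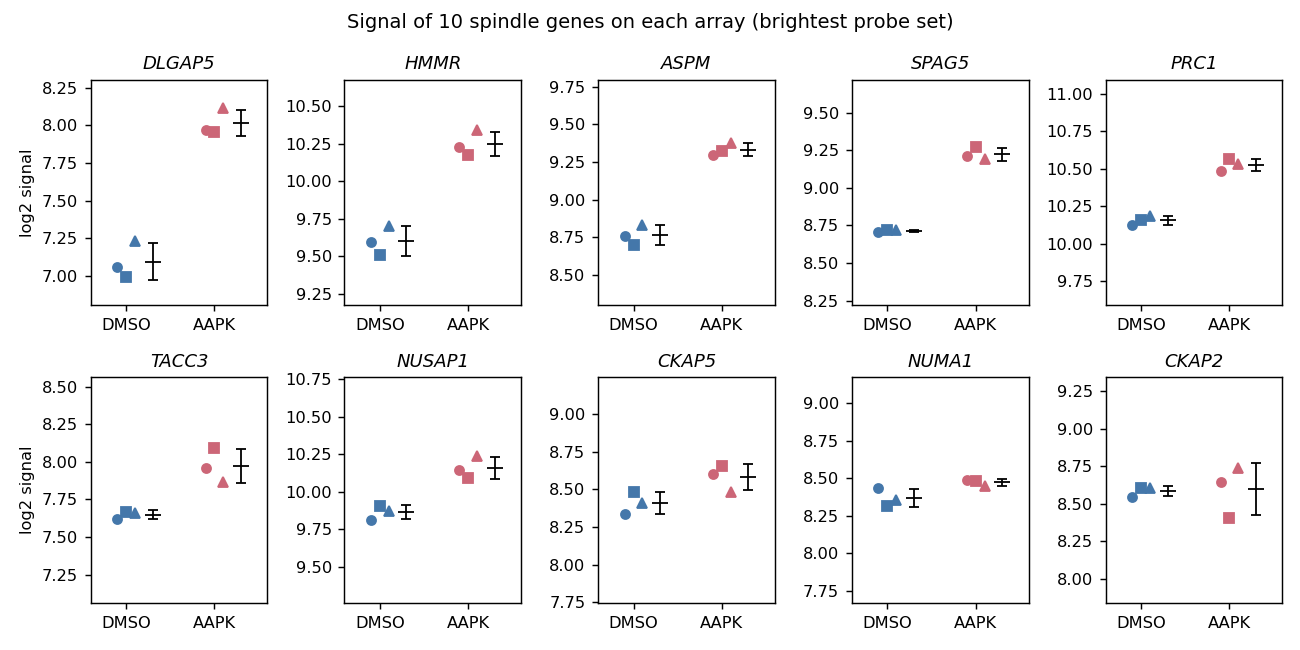
Log2 signal of the brightest probe set of each of the 10 spindle genes on the 3 DMSO (blue) and 3 AAPK (red) arrays; circles, squares and triangles are replicates 1, 2 and 3, bars are the mean ± SD, and every panel spans the same number of log2 units. DLGAP5 shows the widest gap between the groups, and CKAP2 is the gene whose groups overlap.

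DLGAP5 encodes HURP, which bundles and stabilises the kinetochore fibres that tie chromosomes to the poles. In DMSO the gene read 7.06, 6.99 and 7.23, and in AAPK it read 7.97, 7.96 and 8.12. Every AAPK array thus lay above every DMSO array, with replicate 3 the highest in both groups. The gene rose 1.90-fold (0.92 ± 0.07 SE on the log2 scale, with 3 arrays in each group; limma adjusted p = 1.70e-05), and its other probe set gave 0.90. Only 4 of the 18132 genes, DLGAP5 included, had a rise at least this large.

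HMMR encodes RHAMM, a hyaluronan receptor at the cell surface that also works inside the cell at spindle poles, where it binds TPX2. The DMSO arrays stood at 9.60, 9.51 and 9.70 and the AAPK arrays at 10.23, 10.18 and 10.34, without overlap. HMMR rose 1.56-fold (log2 change 0.65 ± 0.06 SE, limma adjusted p = 8.81e-05). All 4 of its probe sets passed, with changes of 0.52 to 0.73.

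SPAG5 encodes astrin, which settles on bioriented kinetochores and holds microtubules there. Its DMSO arrays were almost identical, at 8.71, 8.72 and 8.72, and the AAPK arrays stood at 9.21, 9.27 and 9.19. The change was 1.42-fold (log2 change 0.51 ± 0.04 SE, limma adjusted p = 4.66e-05), and the other probe set rose by 0.61.

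ASPM, the gene most often mutated in primary microcephaly, encodes a protein that gathers at the minus ends of spindle microtubules. It read 8.76, 8.70 and 8.83 in DMSO and 9.29, 9.32 and 9.38 in AAPK, so the groups were apart on all arrays. ASPM rose 1.48-fold (log2 change 0.57 ± 0.05 SE, limma adjusted p = 5.16e-05), with 0.61 on its second probe set.

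PRC1 crosslinks antiparallel microtubules in the midzone after anaphase begins. Its signal went from 10.13, 10.16 and 10.19 to 10.49, 10.56 and 10.53, a rise of 1.29-fold (log2 change 0.37 ± 0.04 SE, limma adjusted p = 3.86e-04). Of its 4 probe sets, 3 rose, by 0.37, 0.37 and 0.40. The exception was the dimmest, at 5.47 in both DMSO (± 0.15 SD) and AAPK (± 0.10 SD), with a difference of -0.01 (adjusted p = 0.971). It was also 1 of only 3 of the 32 probe sets under the median signal.

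NUSAP1 encodes a protein that binds microtubules near chromatin and crosslinks them. It read 9.82, 9.91 and 9.87 in DMSO against 10.14, 10.09 and 10.24 in AAPK, and rose 1.23-fold (log2 change 0.29 ± 0.05 SE, limma adjusted p = 0.00350). The brightest probe set gave the smallest change of its 3, and the others rose by 0.35 and 0.38.

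TACC3 and CKAP5 encode partners. TACC3 is recruited to the spindle after Aurora A phosphorylates it, and with clathrin and ch-TOG, the CKAP5 product, it forms bridges between the microtubules of a kinetochore fibre; ch-TOG also adds tubulin at plus ends. TACC3 read 7.62, 7.67 and 7.66 in DMSO and 7.96, 8.09 and 7.87 in AAPK, where the arrays were more spread (SD 0.03 and 0.11). It rose 1.25-fold (log2 change 0.33 ± 0.06 SE, limma adjusted p = 0.00405). Its 6 probe sets all had positive differences, but only 2 passed, at 0.33 and 0.34, and the other 4 ran from 0.06 to 0.22.

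CKAP5 read 8.34, 8.48 and 8.41 in DMSO and 8.60, 8.65 and 8.48 in AAPK. The groups were separated only narrowly, 8.48 being both the highest DMSO and the lowest AAPK value after rounding. The difference was 0.17 ± 0.06 SE (95% interval 0.04 to 0.30) and did not pass in the gene fit (limma adjusted p = 0.0788). Its dimmer probe set passed among all probe sets, at 0.19 (adjusted p = 0.0445). CKAP5 was the gene that sat at the threshold: it passed in 5 of 15 alternative settings, with 0.22 without AAPK replicate 3 (adjusted p = 0.0371).

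NUMA1 and CKAP2 had no change that passed. NUMA1 encodes NuMA, which gathers microtubule minus ends at the poles with dynein and links the spindle to the cell cortex, and in interphase it is a nuclear protein. It read 8.43, 8.31 and 8.36 in DMSO and 8.49, 8.48 and 8.45 in AAPK, a difference of 0.10 ± 0.05 SE (95% interval 0.00 to 0.21, limma adjusted p = 0.184). Its other probe set, under the 25th percentile of signal, had -0.10 (adjusted p = 0.299), so the 2 differed in sign.

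CKAP2 encodes a spindle protein that promotes microtubule growth and is degraded as cells leave mitosis. It read 8.55, 8.60 and 8.60 in DMSO and 8.64, 8.41 and 8.74 in AAPK, so the DMSO values lay within the wider spread of the AAPK arrays (SD 0.03 and 0.17). The difference was 0.01 ± 0.08 SE (95% interval -0.15 to 0.18, limma adjusted p = 0.942). Its 5 probe sets ran from -0.20 to 0.13, 3 above and 2 below 0, and 0 of them passed (2 at an unadjusted p under 0.05, 1 in each direction). The interval of the brightest does not reach the rise of any spindle gene that passed in the gene fit, the smallest being 0.29 in NUSAP1. These differences between genes were not tested.

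**Figure D2:**
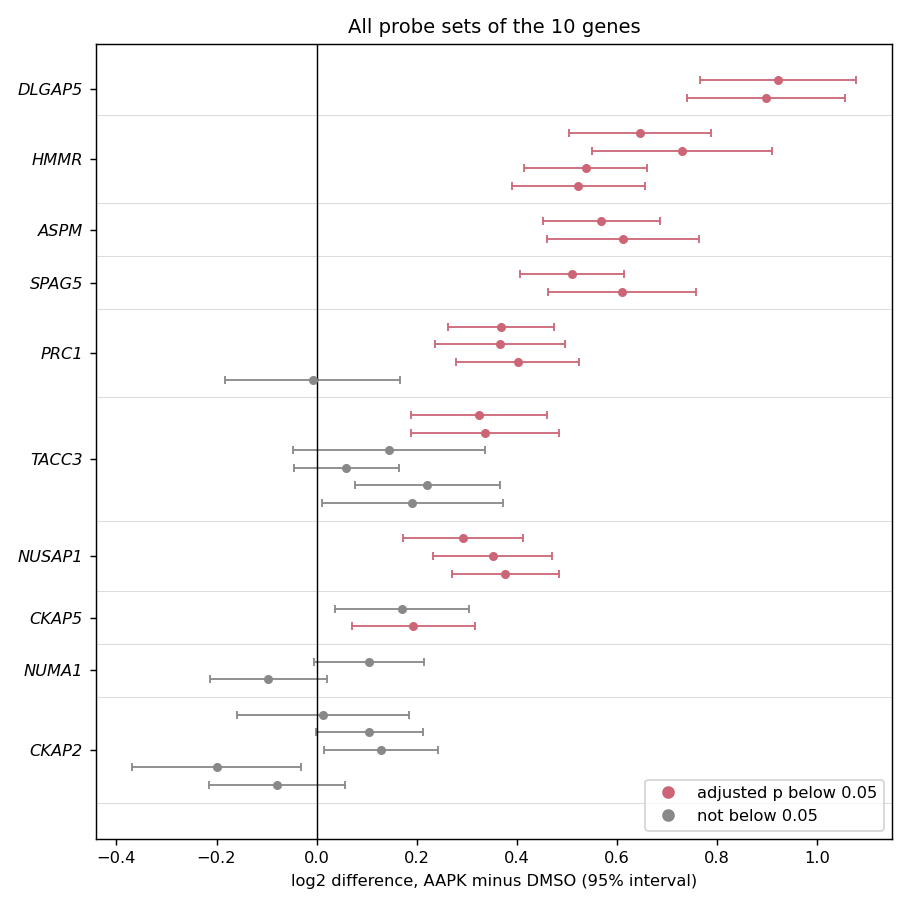
Log2 difference (AAPK minus DMSO, x axis) with its 95% interval for all 32 probe sets, grouped by gene and ordered from the brightest probe set down; red marks an adjusted p below 0.05 over all 44988 probe sets. The probe sets of DLGAP5, HMMR, ASPM, SPAG5 and NUSAP1 all lie to the right of 0 and pass, while those of CKAP2 fall on both sides.

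Over all 32 probe sets, 19 rose and 0 fell (1, of CKAP2, was lower at an unadjusted p under 0.05), against 7.13% higher and 5.82% lower, or 12.9% in either direction, of the 44988 tested. Without AAPK replicate 2, 18 rose and 1 fell, the CKAP2 probe set at -0.28 (adjusted p = 0.0317). The 2 groups of arrays did not overlap for 26 of the 32, 25 of them higher in AAPK, against 29.6% of all probe sets. Probe sets of 1 gene read the same transcripts and are not independent. In 5 genes every probe set rose, namely DLGAP5, HMMR, NUSAP1, ASPM and SPAG5, and in PRC1, TACC3 and CKAP5 some did. A signal filter left nearly all of them in: 31 of the 32 probe sets lay above the 25th percentile, and all 10 brightest probe sets above the median gene.

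Both kinases that the compound is named for were higher at the RNA level, with part of the gene list around the TACC3 bridge. AURKA, which encodes Aurora A, read 9.77, 9.80 and 9.79 in DMSO and 10.57, 10.60 and 10.59 in AAPK (log2 change 0.80 ± 0.04 SE), and PLK1 had 0.21 ± 0.05 SE. Of the 10 genes listed for this module 6 rose and 0 fell (0 also at an unadjusted p under 0.05), with a median of 0.22. The other 4 did not pass. Beside this, 8.11% of all genes were higher and 7.26% lower. TPX2, the activator of Aurora A, rose by 0.38 (adjusted p = 0.00187). The genes that follow were named after their values were seen. GTSE1, which binds the TACC3 and clathrin complex, rose by 0.38. The clathrin heavy chain gene CLTC rose by 0.30, although its 5 probe sets ran from -0.05 to 0.31. BORA rose by 0.24, a call lost without DMSO replicate 1 or 2, or AAPK replicate 2 or 3. Neither clathrin light chain gene passed: CLTB was at 0.11 (95% interval -0.01 to 0.22) and CLTA at -0.0032 (-0.11 to 0.10). PIK3C2A at 0.09 and KIF15 at -0.11 did not pass either.

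Of 11 partners of astrin, RHAMM and HURP 4 rose, 2 fell and 5 did not pass, beside 8.11% higher and 7.26% lower among all genes. The median of these partners was 0.15. RAN, 1 of the 4 and named after its value was seen, had 4 probe sets that ran from -0.27 to 0.27. Its call was lost on their mean (0.07, limma adjusted p = 0.291). DYNLL1, a dynein light chain that binds with astrin at kinetochores, rose by 0.50 ± 0.04 SE (adjusted p = 3.74e-05), and KNSTRN, the small kinetochore partner of astrin, named after its value was seen, rose by 0.36. BRCA1 and BARD1, a ubiquitin ligase pair that acts on RHAMM and also repairs DNA, fell by 0.38 and 0.19, opposite in direction to HMMR; BARD1 was named after its value was seen, and the 5 probe sets of BRCA1 ran from -0.38 to -0.01. The fall of BARD1 was not called when DMSO replicate 1 (adjusted p = 0.0666), DMSO replicate 3 (0.0642) or AAPK replicate 1 (0.0871) was left out.

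Among 10 midzone and cytokinesis partners of PRC1, 7 rose and 0 fell (0 also lower at an unadjusted p under 0.05), and the median was 0.30. Among all genes 8.11% were higher and 7.26% lower. KIF20A, a midzone kinesin, rose by 0.73 ± 0.05 SE (adjusted p = 1.12e-05), and ECT2, the exchange factor that activates RhoA at the midzone, by 0.47. KIF4A, the kinesin that works with PRC1 at the midzone, rose by 0.32 and was named after its value was seen. The 3 that did not pass, named after their values were seen, were AURKB, CIT and INCENP, at 0.05, 0.03 and 0.17.

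Of 14 measured partners of NuMA and ASPM at the poles and the cortex 3 rose, 1 fell and 10 did not pass, with a median of 0.05, beside 8.11% higher and 7.26% lower among all genes; DYNC1I2, a dynein intermediate chain, rose by 0.37 and NDEL1, a dynein regulator, by 0.23. The cortical partner GPSM2 and the dynein heavy chain gene DYNC1H1, named after their values were seen, were at 0.12 and -0.02 and did not pass. Without DMSO replicate 1, DMSO replicate 2, AAPK replicate 1 or AAPK replicate 2, 2 rose and 0 fell in each case. GNAI1 and KATNA1 were named after their values were seen. GNAI1, the 1 that fell, was at -0.18 (limma adjusted p = 0.0470). Its probe sets ran from -0.18 to 0.20, and their mean was at 0.05. KATNA1, 1 of the 3 that rose, lay under the 25th percentile of all genes.

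Microtubule nucleation genes moved both ways. Of 18 measured genes of augmin and the gamma-tubulin complex 3 rose and 5 fell (median -0.04), beside 8.11% and 7.26% of all genes. HAUS3, an augmin subunit, fell by 0.34 ± 0.08 SE (adjusted p = 0.0130), with -0.57 and -0.14 on its other probe sets, while MZT1, a small subunit of the gamma-tubulin complex, rose by 0.34. Named after their values were seen, the augmin genes HAUS2, HAUS5 and HAUS8 fell by 0.23, 0.22 and 0.23. The call on HAUS3 was lost without DMSO replicate 1 (adjusted p = 0.0555) and also when AAPK replicate 2 was left out (0.0517). Those on HAUS2, HAUS5 and HAUS8 were lost without AAPK replicate 1 (0.0615, 0.116 and 0.0621). HAUS5 also lost its call without DMSO replicate 1 (0.0787), DMSO replicate 2 (0.0963) or AAPK replicate 3 (0.0561). HAUS8 did so without DMSO replicate 1 (0.0679), DMSO replicate 3 (0.0708) or AAPK replicate 2 (0.0820). HAUS2 was not called on the mean of its probe sets (0.0794), nor HAUS5 on its probe set of largest variance (0.0778). In the whole list, 4 genes rose and 1 fell without DMSO replicate 1, 3 and 1 without AAPK replicate 1, and 3 and 2 without AAPK replicate 2.

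Of 25 plus-end trackers and general microtubule-associated proteins 3 rose, 2 fell and 20 did not pass, beside 8.11% higher and 7.26% lower among all genes. The list's median was -0.04, and without DMSO replicate 1 or DMSO replicate 2, 3 rose and 0 fell. JPT1 (HN1), a microtubule-associated protein, rose by 0.63 and MAP7D1 by 0.26. STMN1 and MAP4, named after their values were seen, were at 0.03 and 0.05. Of 6 measured paralogs of the spindle genes 0 rose (0 also at an unadjusted p under 0.05) and 1 fell, TACC1, by 0.27 (adjusted p = 0.00476). The other 5, also named after their values were seen, were CKAP2L, TACC2, DLGAP2, DLGAP3 and DLGAP4, which did not pass, at -0.16 to -0.03. TACC3 thus rose and TACC1 fell, and DLGAP5 rose while its 3 measured paralogs did not pass. Of these, DLGAP2 lay under the 25th percentile of all genes, where a change is hard to see.

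**Figure D3:**
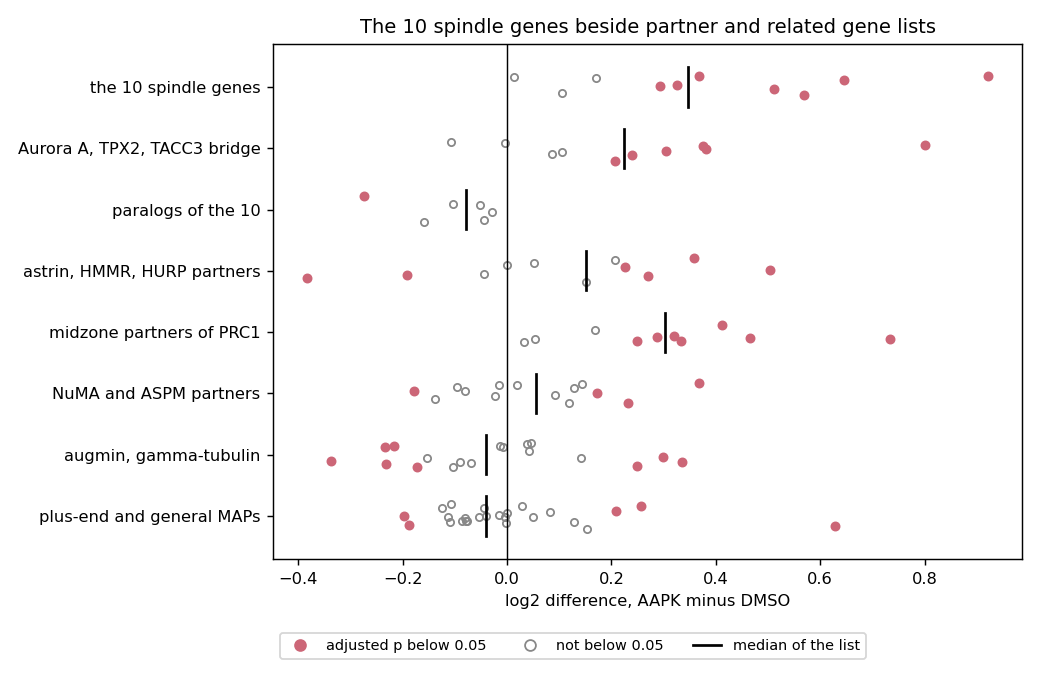
Log2 difference (AAPK minus DMSO, x axis) of each measured gene on its brightest probe set, for the 10 spindle genes and 7 lists of partners and related genes; points are jittered vertically, filled red points have an adjusted p below 0.05 and black lines are medians. The medians run from 0.35 for the spindle genes to -0.08 for their paralogs.

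The sequence before the start of these genes was read for motifs linked to G2 and M phase transcription, since most of the genes moved together. RefSeq windows of 300 bases (GRCh38.p14), from 250 before to 50 after the annotated start, were held for all 10. The cell cycle homology region (CHR), which B-MYB and DREAM complexes bind, was searched as TTTGAA or TTCGAA, and the CCAAT box bound by NF-Y as CCAAT, all on both strands. The CHR letters were in 7 of the 10 windows and in 16.4% of all 35114 windows of that length. CCAAT was in 7 of 10, against 34.6%, and both were in 6 of 10, DLGAP5, HMMR, NUSAP1, PRC1, ASPM and CKAP5, against 6.38%. Of the 7 genes that rose, 6 held the CHR letters; of the other 3, CKAP5 did. E2F letters (TTTCGCGC, TTTGGCGC, TTTCCCGC or TTGGCGC, the last lying within the second) were in NUSAP1 alone, against 5.0% of all windows. Such short matches are letters in a window and not shown to be bound here.

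The 150 bases before the annotated start are given for 6 genes, from the gene with the largest rise to 1 that did not pass, so that the positions of the motifs can be compared. Capitals mark the CHR letters (TTTGAA, or TTCAAA on the other strand) and the CCAAT box (CCAAT, or ATTGG on the other strand), and each is written 5′ to 3′ on the gene's own strand. They lie at chr14:55191586-55191735 (minus strand), chr5:163460482-163460631 (plus), chr1:197146670-197146819 (minus), chr15:90994536-90994685 (minus), chr4:1720481-1720630 (plus) and chr11:46846281-46846430 (minus).
DLGAP5: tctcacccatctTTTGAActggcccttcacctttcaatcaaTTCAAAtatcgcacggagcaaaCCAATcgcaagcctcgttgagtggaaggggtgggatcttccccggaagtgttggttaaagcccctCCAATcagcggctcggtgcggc
HMMR: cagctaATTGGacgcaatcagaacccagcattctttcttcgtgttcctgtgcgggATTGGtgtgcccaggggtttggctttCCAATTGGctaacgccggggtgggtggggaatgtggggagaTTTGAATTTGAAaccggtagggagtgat
ASPM: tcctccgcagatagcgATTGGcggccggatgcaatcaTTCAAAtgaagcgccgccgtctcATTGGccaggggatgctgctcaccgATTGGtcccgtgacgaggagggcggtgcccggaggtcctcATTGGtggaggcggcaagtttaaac
PRC1: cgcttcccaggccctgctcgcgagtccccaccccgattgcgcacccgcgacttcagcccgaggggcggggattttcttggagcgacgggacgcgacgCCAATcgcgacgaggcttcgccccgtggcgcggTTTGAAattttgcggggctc
TACC3: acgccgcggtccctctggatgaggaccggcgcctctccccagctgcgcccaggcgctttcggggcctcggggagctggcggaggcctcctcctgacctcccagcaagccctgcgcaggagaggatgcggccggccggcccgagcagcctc
CKAP5: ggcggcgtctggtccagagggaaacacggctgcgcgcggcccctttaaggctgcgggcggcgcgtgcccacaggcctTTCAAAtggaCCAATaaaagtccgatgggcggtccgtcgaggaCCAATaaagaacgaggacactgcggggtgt

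DLGAP5, with the largest rise, had CHR letters beginning 138 and 109 bases before the start and again at base 4 after it, and CCAAT boxes 87 and 22 bases before. HMMR held 2 CHR copies side by side, 28 and 22 bases before the start, and 5 CCAAT matches, of which those at 69 and 66 overlap as 1 palindrome. ASPM had 4 CCAAT matches and 1 CHR match at 113 bases. PRC1 had the simplest layout, a CCAAT box at 53 and CHR letters at 20 bases before the start. In NUSAP1 and SPAG5 the CHR letters lay just after the start, at bases 14 and 4. TACC3, which rose, held none of these letters, and CKAP5, which did not pass in the gene fit, held both. Whether the letters go with the changes was not tested. CKAP2 held none and NUMA1 only a CCAAT box, at 44 bases.

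**Figure D4:**
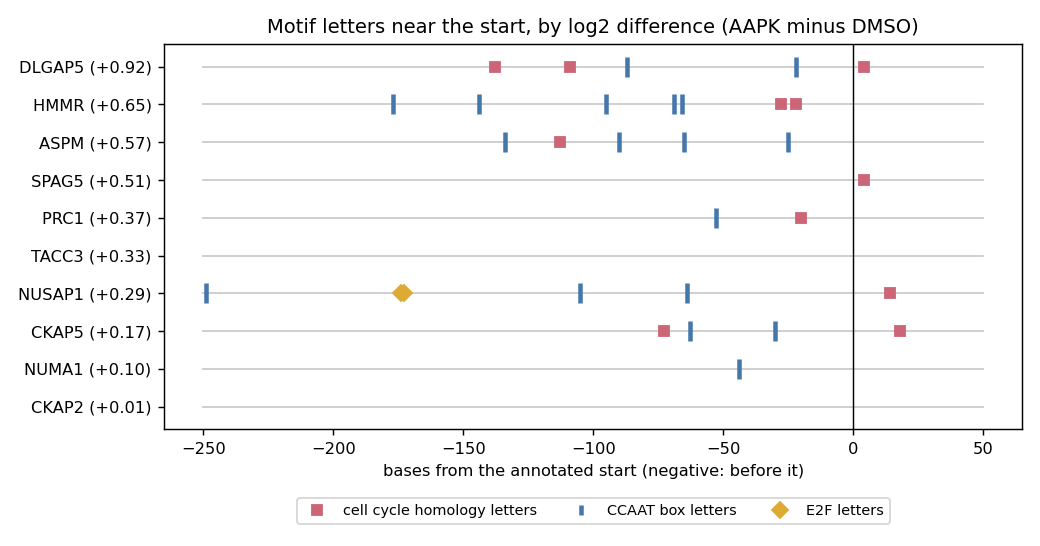
First base of each motif match, in bases from the annotated start (x axis, 250 before to 50 after), for the 10 genes in order of their log2 difference, which is given beside each name; red squares are CHR letters, blue bars CCAAT and yellow diamonds E2F letters, on either strand. Of the 7 genes that rose, TACC3 has no mark, and CKAP5 is marked although it did not pass.

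The genes whose profile over the 6 arrays lay closest to that of DLGAP5, by Euclidean distance of log2 values centred per gene, were HSPH1, an HSP110 chaperone (distance 0.13), RBIS, a ribosome biogenesis factor (0.14), and CKS2, a subunit of cyclin-dependent kinases (0.15). They rose by 0.91, 0.87 and 1.0. CKAP2, the gene with the smallest change, was nearest to RBMS3, LRRC66 and HOPX, at 0.05, 0.05 and 0.07, with differences of -0.01, 0.01 and 0.02 that did not pass. LRRC66 read only 3.33 to 3.63 and HOPX 4.05 to 4.38, under the 25th percentile of all single-symbol probe sets (5.15), whereas CKAP2 was far brighter. With only 6 arrays in 2 groups, such a distance mostly reads the difference between the groups.

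Signs of RNA quality differed little for messenger RNA controls. The 3′ minus 5′ signal of GAPDH was -0.09 to -0.05 in DMSO and -0.12 to -0.07 in AAPK (two-sided exact permutation p = 0.6), and that of ACTB 0.47 to 0.52 and 0.44 to 0.57 (two-sided exact permutation p = 1; 3 arrays against 3 cannot go below 0.1). Among 102 Affymetrix control probe sets 3 passed, all for ribosomal RNA, and their part in the results was not tested.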

How the data were processed

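The data were 6 arrays, 3 DMSO and 3 AAPK, grouped by sample title. The authors' deposited values are log2 signals for 49395 probe sets; the log2 scale was read from the values, and the near-equal array quartiles show normalisation between arrays before deposit. The background correction, normalisation and summarisation, not given in the sources used here, could change the values, and changes are relative to the bulk of the genes. Names came from the platform annotation: 44988 probe sets named 1 symbol, and 102 controls, 1832 with several symbols and 2473 with none were left out; 0 of those with several named a member.

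Differences were tested two-sided, with no covariate, by lmFit and eBayes (limma 3.58.1, R 4.3.3) in 2 fits, over 18132 genes (each represented by its brightest probe set on average) and over all 44988 probe sets, with Benjamini-Hochberg adjustment over each and a threshold of 0.05. Precision is limited by the 3 arrays per group. Both fits were tested on simulated data with added changes of known size. Far fewer changes were present there than in the data: 158 genes and 140 probe sets were called, against 2788 and 5824. The adjusted threshold depends on that share, so recovery in the real fits may differ. At 0.25 on the log2 scale the gene fit recovered 38.8% of the changes and the probe-set fit 14.9%. At 0.5 they recovered 91.0% and 86.6%. A difference of 0.25 or less that did not pass is thus not shown to be absent.

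The members and gene lists were chosen with earlier results of these data known. Named genes are all 10 members, AURKA, PLK1, the 2 largest changes past the threshold in each list and the 3 nearest profiles to 2 members; others are marked, or are the fixed markers of the labelled line. Alternatives were other normalisation, signal filters, variance trend, array weights, a replicate block, other probe set choices and leaving out each array. The labels state no pairing, so the replicate numbers were not treated as pairs. Same-numbered arrays did not deviate together, although so few arrays cannot exclude pairing.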

Additional observations from a re-analysis of the deposited data

Results flagged for a closer look

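Among the 102 Affymetrix control probe sets, which no comparison of genes uses, 3 differed between AAPK and DMSO (limma, adjusted over the controls). The 5′ and middle probe sets of the large-subunit ribosomal RNA differed by 0.56 and 0.51 on the log2 scale (adjusted p = 0.0265 and 0.00947), and the 3′ probe set of the small subunit by -0.41 (adjusted p = 0.0498). The 3′ probe set of the large subunit was at -0.13, opposite in sign, and did not pass (adjusted p = 0.967). Nor did the 5′ and middle probe sets of the small subunit, at -0.06 and -0.06.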

How the results depend on the processing

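The 7 members that rose did so in all 15 alternative settings of the gene fit, and the count of members that passed was 7 or 8, the eighth being CKAP5. The members' median ran from 0.31 to 0.39. CKAP5 passed with genes under the median of signal left out (adjusted p = 0.0285), an intensity trend (0.0343), array weights (0.0174), the mean of its probe sets (0.0303) and without AAPK replicate 3 (0.0371). CKAP2, which never passed, changed sign with quantile normalisation (-0.0091), the mean of its probe sets (-0.0062), its probe set of largest variance (-0.20), and without DMSO replicate 1 (-0.0051), AAPK replicate 1 (-0.010) or AAPK replicate 3 (-0.058), within -0.058 to 0.11 over the arrays left out, and NUMA1 changed sign on its probe set of largest variance (-0.10). Leaving out probe sets with suffixes for shared probes kept 32513 probe sets and lowered the count passing from 5824 to 3401, with fewer tested; 15 member probe sets then passed, against 19. With genes under the median of signal left out, 3 augmin and gamma-tubulin genes rose and 2 fell. Leaving out an array gave 1921 to 2450 genes. Same-numbered arrays correlated at -0.02, -0.23 and -0.05 in their deviations from the group means. With the replicate block 2099 genes, 7 members and 18 member probe sets passed, and in the NuMA and ASPM partner list 2 rose and 0 fell, while BARD1 lost its call (adjusted p = 0.0554). Adding the block thus changed no call on a member gene.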
